A study of Mus musculus with 16 samples.

Results

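Fn1 (fibronectin), Thbs1 to Thbs4 (thrombospondins), Comp (cartilage oligomeric matrix protein, a thrombospondin by structure), Tnc and Tnxb (tenascins C and X), Postn (periostin) and Sparc were described as a group of 10 secreted adhesive and matricellular proteins. They were taken by gene symbol from a table of 54532 genes, in which all 10 had a row. The transcripts of whole inguinal white adipose tissue (iWAT) of male mice had been sequenced in 2 transgenic studies, with 4 libraries in each of 4 groups. Has2_TG tissue came from Apn-Has2 mice, which carried Adiponectin-rtTA and TRE-Has2 and made hyaluronan synthase 2 in adipocytes. PH20_TG tissue came from Apn-PH20 mice, which carried Adiponectin-rtTA and TRE-PH20 and made the hyaluronidase PH20, the product of Spam1, in adipocytes. Has2_WT and PH20_WT were littermates with Apn-rtTA alone, so that the driver was present in the controls too. All 4 groups ate chow with 200 mg/kg doxycycline for 5 days, starting at 8 to 10 weeks of age. The labels number the libraries within a group without naming the animals, so the p-values here measure only the spread between these libraries.

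The extracellular matrix is a mesh of collagens, proteoglycans, glycoproteins and hyaluronan, a long sugar polymer. Fibronectin is secreted as a dimer that integrins pull into fibrils, and other matrix proteins are laid down on those fibrils. Matricellular proteins are also secreted into the matrix, where they mostly change how cells hold on to it and respond to growth factors. In adipose tissue many such genes are expressed mainly by fibroblast-like stromal cells, a class that includes the adipocyte progenitors.

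Values are FPKM as the authors deposited them, that is, read counts scaled by the length of the gene and by the size of the library. From 14421692 to 26751729 reads lay behind a library. Each comparison was fitted with limma on log2(FPKM + 0.1) over genes that averaged 50 reads or more, 12606 in the Has2 study and 12532 in the PH20 study. A gene was called at an unadjusted p under 0.05, the threshold the study used, and adjusted p-values follow Benjamini and Hochberg over every gene in the fit. The adipocyte markers Adipoq, Fabp4, Cidec, Plin1, Pparg and Lep summed to between 3193 and 7632 FPKM in every library, and none of the 6 was called in either study. Has2 was at 0.417 to 0.806 FPKM in Has2_WT and at 1.86 to 3.24 FPKM in Has2_TG. Spam1 had 6, 12 and 5 reads in PH20_TG2, PH20_TG3 and PH20_TG4. It had 0 reads in the library labelled PH20_TG1 and in the other 12 libraries, where by depth alone a count of 0 allows up to 3 reads. The libraries labelled PH20_TG1 and PH20_TG4 had Has2 at 3.32 and 3.26 FPKM, near the highest Has2_TG library. Spam1 does not bear out the first label. However, fewer genes had a read in PH20_TG1 (16968) than in PH20_TG2 (20542), PH20_TG3 (20416) and PH20_TG4 (21125). A count of 0 for so low a gene therefore cannot decide that label, and every PH20_TG value rests on the labels as given. The main PH20 values are therefore also given without the library labelled PH20_TG1. Transcripts of B cells, summed over 8 markers, reached 315, 252, 322 and 119 FPKM in Has2_WT1, Has2_WT2, PH20_WT1 and PH20_WT3, against 1.66 to 6.11 FPKM in the other 12 libraries.

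The stretches of 250 bases before the start sites of 5 members are shown because the levels of Thbs2, Thbs3 and Tnxb followed that of Fn1 from library to library most closely, and Postn and Tnc are set beside them as members with a lower correlation with it. They are read 5′ to 3′ on the strand of the gene from RefSeq on GRCm38.p6, at chr17:14694263-14694512 (minus strand, Thbs2), chr3:89214930-89215179 (plus strand, Thbs3), chr17:34670285-34670534 (plus strand, Tnxb), chr3:54360857-54361106 (plus strand, Postn) and chr4:64047016-64047265 (minus strand, Tnc). Capitals mark matches, on either strand, to 5 short motifs.
Thbs2: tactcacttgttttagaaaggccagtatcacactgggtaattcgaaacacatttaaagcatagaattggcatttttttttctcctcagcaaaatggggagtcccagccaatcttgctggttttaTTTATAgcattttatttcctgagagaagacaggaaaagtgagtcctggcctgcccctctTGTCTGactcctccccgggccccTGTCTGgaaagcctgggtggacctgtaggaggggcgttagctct
Thbs3: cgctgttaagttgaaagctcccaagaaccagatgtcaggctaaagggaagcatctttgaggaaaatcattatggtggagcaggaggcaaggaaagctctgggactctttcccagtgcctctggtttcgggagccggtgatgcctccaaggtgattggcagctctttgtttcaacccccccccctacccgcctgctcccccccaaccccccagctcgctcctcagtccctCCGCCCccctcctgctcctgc
Tnxb: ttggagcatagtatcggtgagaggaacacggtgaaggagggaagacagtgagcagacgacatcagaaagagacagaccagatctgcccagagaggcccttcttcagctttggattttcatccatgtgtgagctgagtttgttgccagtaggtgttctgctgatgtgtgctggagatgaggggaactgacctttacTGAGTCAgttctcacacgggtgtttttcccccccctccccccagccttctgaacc
Postn: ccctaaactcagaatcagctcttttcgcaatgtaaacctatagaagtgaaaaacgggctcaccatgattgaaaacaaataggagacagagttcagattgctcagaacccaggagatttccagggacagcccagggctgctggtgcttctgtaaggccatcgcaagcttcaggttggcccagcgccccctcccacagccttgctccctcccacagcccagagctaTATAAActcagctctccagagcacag
Tnc: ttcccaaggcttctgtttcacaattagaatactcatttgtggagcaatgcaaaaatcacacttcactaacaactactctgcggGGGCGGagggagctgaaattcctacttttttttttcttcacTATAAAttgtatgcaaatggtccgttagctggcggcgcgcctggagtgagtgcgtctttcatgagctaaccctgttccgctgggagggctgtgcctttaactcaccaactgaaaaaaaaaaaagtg

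The motifs were those of TEAD, AP-1, SMAD and SP1 and the TATA box, and no motif contains another. RefSeq windows were found for 7 of the 10 genes, with 9 windows in all; Fn1, Thbs1 and Comp had none. The Thbs2 window held the SMAD letters at 2 places and the TATA letters on the opposite strand, the Thbs3 window held the SP1 letters and the Tnxb window held the AP-1 letters. The Postn window shown held the TATA letters, and the Tnc window shown held those of SP1 and TATA. Both genes had another window, which held no searched motif for Postn and those of SMAD, SP1 and TATA for Tnc. The 3 windows of the genes that followed Fn1 thus had no searched motif in common. The TEAD letters, GGAATG, were found in 1 of the 9 windows and in 12.6% of 32851 RefSeq windows of the same length. Those of AP-1, TGAGTCA or its reverse complement, were found in 1 of 9 and in 4.46%. Those of SMAD, CAGACA, were found in 4 of 9 and in 17.1%. The SP1 letters, GGGCGG, stood in 4 of 9 and in 32.7%, and the letters of the TATA box, TATAAA, in 4 of 9 and in 12.4%. The 2 windows of Tnc overlap and share their SP1 and TATA matches, so by gene SMAD, SP1 and TATA stood in 4, 3 and 3 of the 7 genes.

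The 5 members called in the Has2 study lie on 3 chromosomes of GRCm38. Fn1 (ENSMUSG00000026193) is on chromosome 1 from 71585520 to 71653200 on the minus strand, with 11685 exon bases. Thbs3 (ENSMUSG00000028047) and Postn (ENSMUSG00000027750) are both on the plus strand of chromosome 3, from 89215180 to 89226837 and from 54361109 to 54391037. Thbs2 (ENSMUSG00000023885) is on the minus strand of chromosome 17 from 14665500 to 14694235, and Tnxb (ENSMUSG00000033327) on its plus strand from 34670535 to 34719815. Fn1 shares 292 exon bases with the antisense gene Apol7d, which averaged 0.75 reads.

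The 10 genes spanned more than 3 orders of magnitude in level, and their order was nearly the same in the 4 groups. Sparc, a collagen-binding protein, ranged from 520 to 1136 FPKM over the 16 libraries and stood 35th of all genes by mean FPKM. In Has2_WT it was at 737 ± 190 FPKM (SD, n = 4) and did not overlap Fn1, the next gene, at 28.3 ± 16.4 FPKM. Tnxb followed at 18.5 ± 7.22 FPKM and Postn at 13.2 ± 3.08 FPKM. Fn1, Tnxb and Postn overlapped their neighbours in this order, so that the spread between libraries did not separate them. Thbs2 was at 5.03 ± 1.63 FPKM, Thbs3 at 2.94 ± 0.984 FPKM and Thbs1 at 2.11 ± 0.521 FPKM, again with overlap between neighbours. Tnc, at 1.13 ± 0.0852 FPKM, lay below every Thbs1 value of that group. Comp and Thbs4, which are abundant in cartilage and tendon, were lowest at 0.543 ± 0.592 and 0.0617 ± 0.0725 FPKM. Only in PH20_TG did 2 means change places, with Thbs3 at 7.81 FPKM above Thbs2 at 6.75 FPKM, and there the ranges of both genes overlapped.

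**Figure D1:**
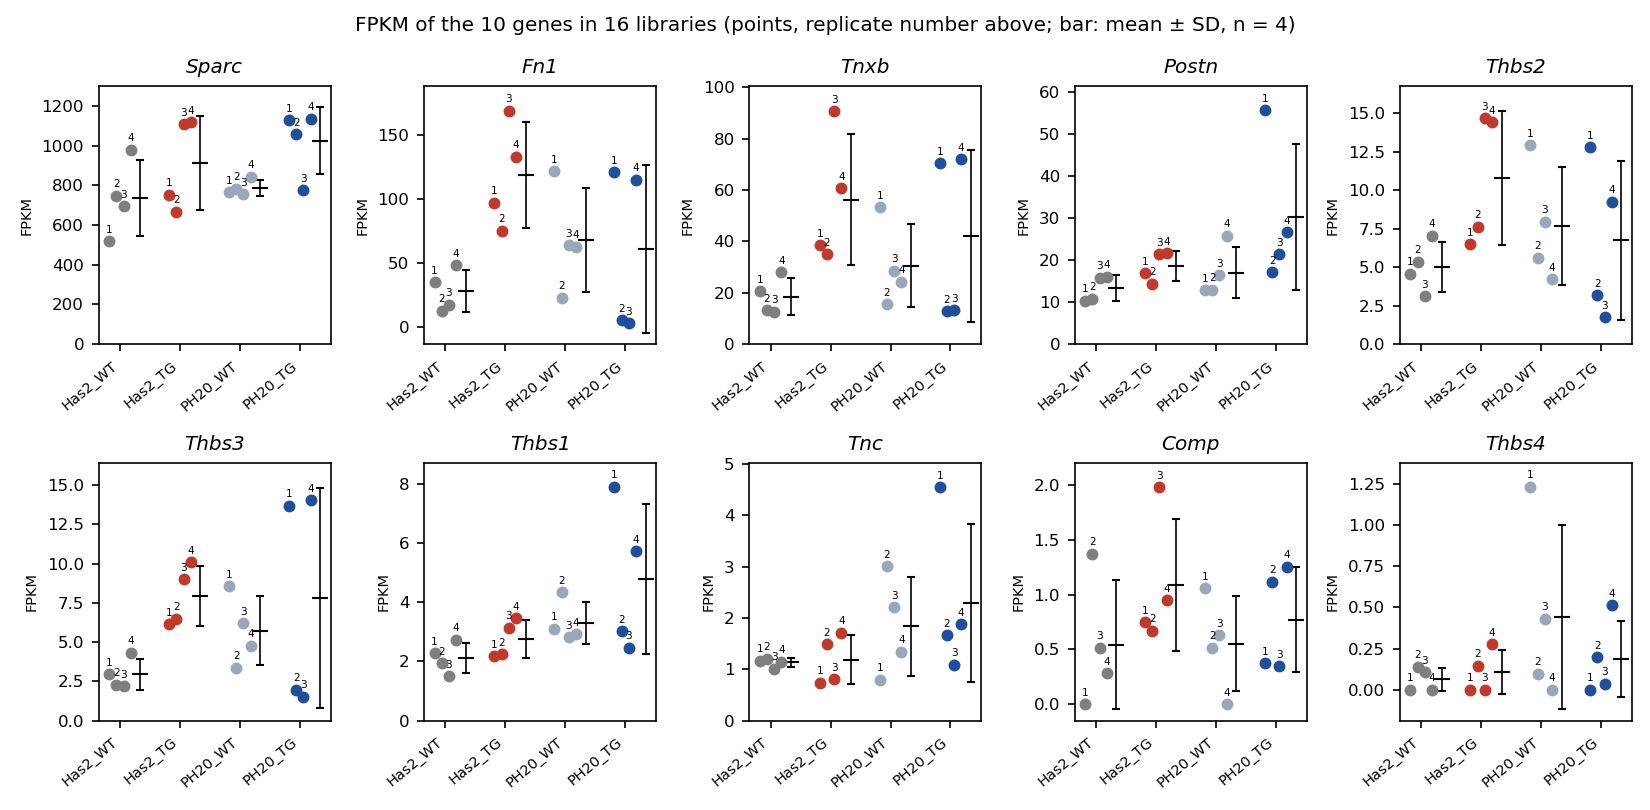
FPKM of each of the 10 genes (vertical axes, linear, 1 panel per gene) in the 4 libraries of each group, with the replicate number above each point and the mean ± SD (n = 4) beside the points. In Fn1, Thbs3 and Tnxb all 4 Has2_TG points lie above all 4 Has2_WT points, and in PH20_TG replicates 1 and 4 lie far above replicates 2 and 3.

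The first comparison asked how these genes differed when adipocytes made more hyaluronan. Fibronectin, thrombospondins 2 and 3, tenascin X and periostin were higher in Has2_TG than in Has2_WT at the unadjusted threshold, which makes 5 of the 8 members tested called higher and 0 called lower, against 6.25% and 3.75% of all genes tested. None of the 8 passed an adjusted p under 0.05 in limma, where 0.103% of all genes tested (13 of 12606) passed as higher. Without Has2_WT4 both Fn1 (adjusted p = 0.0263) and Thbs3 (0.0261) passed in limma. In that fit 138 of 12653 genes passed as higher and 3 as lower. With any other single library of the study left out, no gene passed in either direction. Over all libraries of the study the 8 genes had a median log2 fold change of 0.773, and all genes one of -0.0266. In 3 of the 8, Fn1, Thbs3 and Tnxb, all 4 transgenic values exceeded all 4 control values, which held for 4.08% of all genes tested. The smallest p an exact two-sided permutation test can give with 4 libraries against 4 is 0.0286, and these 3 genes had it. Without Has2_WT1 and Has2_WT2, the controls with B cell transcripts, 4 of the 8 genes were called higher, beside 734 of all 12323 genes tested in that fit.

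Fn1 moved most. The Has2_WT libraries had 35.1, 12.5, 17.4 and 48.1 FPKM and the Has2_TG libraries 96.9, 75.0, 169 and 133 FPKM. The lowest transgenic library was thus above the highest control, and the means were 118 ± 41.2 and 28.3 ± 16.4 FPKM (SD, n = 4 each). The log2 fold change was 2.19 (SE 0.42, 95% interval 1.25 to 3.13), a 4.58-fold difference, with an adjusted p of 0.0776 in limma. By p it stood 68th of the genes tested.

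Among the thrombospondins, which bind calcium, collagens and many cell surface receptors, those that form pentamers and those that form trimers both had a member that was called. Thbs3, a pentamer, had 2.94, 2.30, 2.20 and 4.33 FPKM in Has2_WT and 6.14, 6.49, 9.03 and 10.1 FPKM in Has2_TG, without overlap. Its log2 fold change was 1.42 (SE 0.26), with an adjusted p of 0.0755 in limma, the lowest of the members. Thbs3 shares 318 exon bases, 6.59% of its exons, with Mtx1 on the opposite strand, and the strand setting of the authors' counting is not given in the sources used here, so reads from those bases cannot be assigned to one of the pair.

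Thbs2, a trimer that binds matrix metalloproteinase 2, had 4.59, 5.36, 3.13 and 7.04 FPKM in Has2_WT and 6.47, 7.63, 14.7 and 14.4 FPKM in Has2_TG. Has2_WT4 lay above Has2_TG1, so the groups overlapped at that point. The log2 fold change was 1.05 (SE 0.33, adjusted p = 0.290 in limma). With all 16 libraries in 1 fit, the spread being shared with the PH20 study, the SE was 0.53 and Thbs2 was no longer called.

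Thbs1, the trimer known for activating latent TGF-beta and best known from platelets, did not pass. Its values were 2.28, 1.94, 1.503 and 2.73 FPKM in Has2_WT and 2.18, 2.25, 3.14 and 3.46 FPKM in Has2_TG, with 2 transgenic libraries above all controls, and its log2 fold change was 0.37 (95% interval -0.21 to 0.96). Of the 2 platelet markers that were tested, Pf4 was called higher by 0.81 on the log2 scale, and Itga2b stood at -0.10; the part of platelets in the Thbs1 values was not tested.

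The tenascins parted. Tnxb, which is bound to fibrillar collagens in loose connective tissue, had 20.48, 13.1, 12.6 and 27.9 FPKM in Has2_WT and 38.6, 35.1, 90.8 and 60.7 FPKM in Has2_TG. All 4 transgenic libraries exceeded all controls, with a log2 fold change of 1.57 (SE 0.35, adjusted p = 0.105 in limma). Tnc, which is typical of growing or injured tissue, had 1.17, 1.20, 1.01 and 1.15 FPKM in Has2_WT and 0.740, 1.49, 0.811 and 1.71 FPKM in Has2_TG. Its transgenic values lay on both sides of a narrow control range, and the log2 fold change was -0.01 (95% interval -0.74 to 0.72), a value whose sign turned in 4 of the alternatives that kept the whole groups or left out the libraries with B cell transcripts.

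Postn, which carries fasciclin domains and takes part in collagen crosslinking, had 10.3, 10.8, 15.8 and 15.99 FPKM in Has2_WT and 16.9, 14.4, 21.4 and 21.7 FPKM in Has2_TG. Has2_TG2 lay within the control range and the other 3 above it. The log2 fold change was 0.50 (SE 0.21, adjusted p = 0.469 in limma). This call was lost when Has2_WT1, Has2_WT2, Has2_TG1, Has2_TG3 or Has2_TG4 was left out (log2 fold changes of 0.39 to 0.53). It was also lost without a variance trend, with all 16 libraries in 1 fit, and with the B cell or progenitor score. Without Has2_WT1 and Has2_WT2 together, the libraries with B cell transcripts, the log2 fold change was 0.20 and not called. Sparc had 520, 749, 696 and 981 FPKM in Has2_WT and 753, 668, 1109 and 1120 FPKM in Has2_TG. Its 2 highest libraries were transgenic, the others overlapped, and the log2 fold change of 0.31 (95% interval -0.28 to 0.90) did not pass.

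Comp and Thbs4 had means of 46.4 and 5.12 reads in the Has2 study, under the minimum of 50, and were not tested. Comp had 0, 1.37, 0.516 and 0.282 FPKM in Has2_WT and 0.749, 0.670, 1.98 and 0.951 FPKM in Has2_TG, so that Has2_WT2 lay above 3 of the 4 transgenic libraries. Thbs4 had at most 19 reads in any library of this study. Of 6 tendon markers, Tnmd was at 0 in all 8 libraries and the list summed to between 0.404 and 8.63 FPKM, and of 5 chondrocyte markers Matn1 and Matn3 were at 0, with sums of at most 0.672 FPKM.

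**Figure D2:**
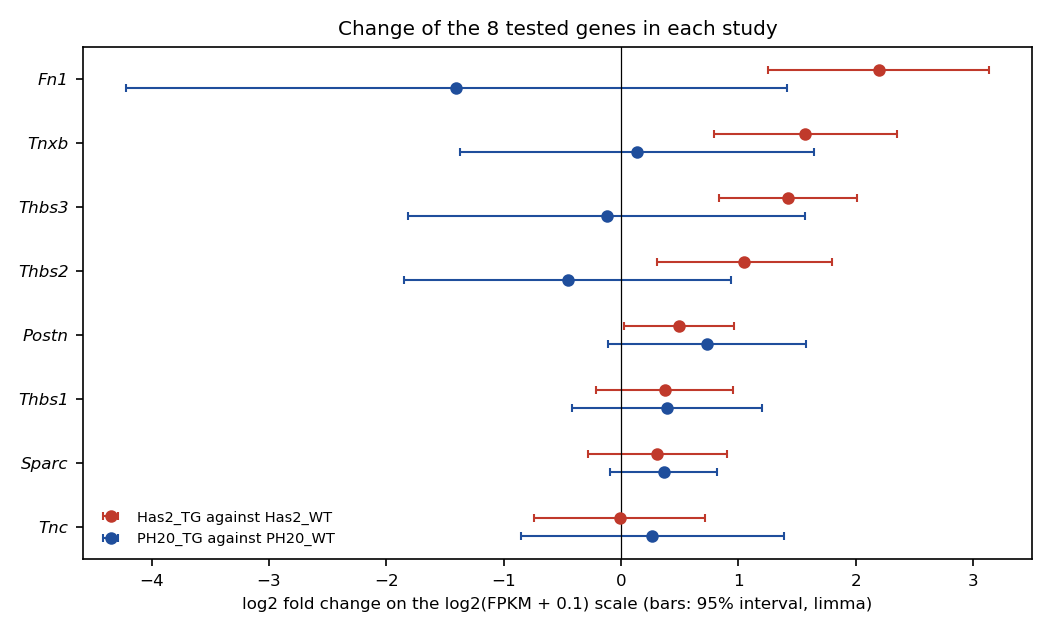
Log2 fold change (horizontal axis, on the log2(FPKM + 0.1) scale) of the 8 tested genes (vertical axis) in the Has2 study (red) and the PH20 study (blue), with 95% intervals from limma. The Has2 intervals of Fn1, Tnxb, Thbs3, Thbs2 and Postn lie above 0, while all 8 PH20 intervals include 0 and that of Fn1 runs from -4.22 to 1.41.

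Markers of other cells moved in the same comparison. Of 9 markers of adipocyte progenitors, the stromal cells from which fat cells arise, 7 were called higher in Has2_TG and 0 lower. Their summed FPKM was 193 to 390 in Has2_WT and 561 to 801 in Has2_TG, without overlap, and Pi16, which marks progenitors of the connective tissue around the fat lobules, was 1.98 higher on the log2 scale (SE 0.38). In bulk tissue a change in the number of such cells and a change in RNA per cell cannot be told apart. The progenitor score, the mean log2 level of the 9 markers in each library, was then added to the fit. Fn1 had a log2 fold change of 0.05 (SE 0.43), Thbs3 of 0.19, Tnxb of -0.23, Thbs2 of -0.47 and Postn of 0.04. With the score 0 of the 8 genes were called, and of all 12606 genes 507 were called higher and 355 lower. The score itself differed between the groups, so its part and that of the genotype cannot be told apart. Of 7 macrophage markers 5 were also called higher, with sums of 261 to 534 FPKM in Has2_WT and 562 to 736 FPKM in Has2_TG, and the part of macrophages in these values was not tested. Skeletal muscle markers summed to 362, 755, 7.92 and 10.1 FPKM in Has2_TG1 to Has2_TG4 and to 22.54 to 96.55 FPKM in Has2_WT. Of the 9 tested, 0 were called. Beyond the fit with the muscle score, the part of muscle in the values of the 8 genes was not tested.

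**Figure D3:**
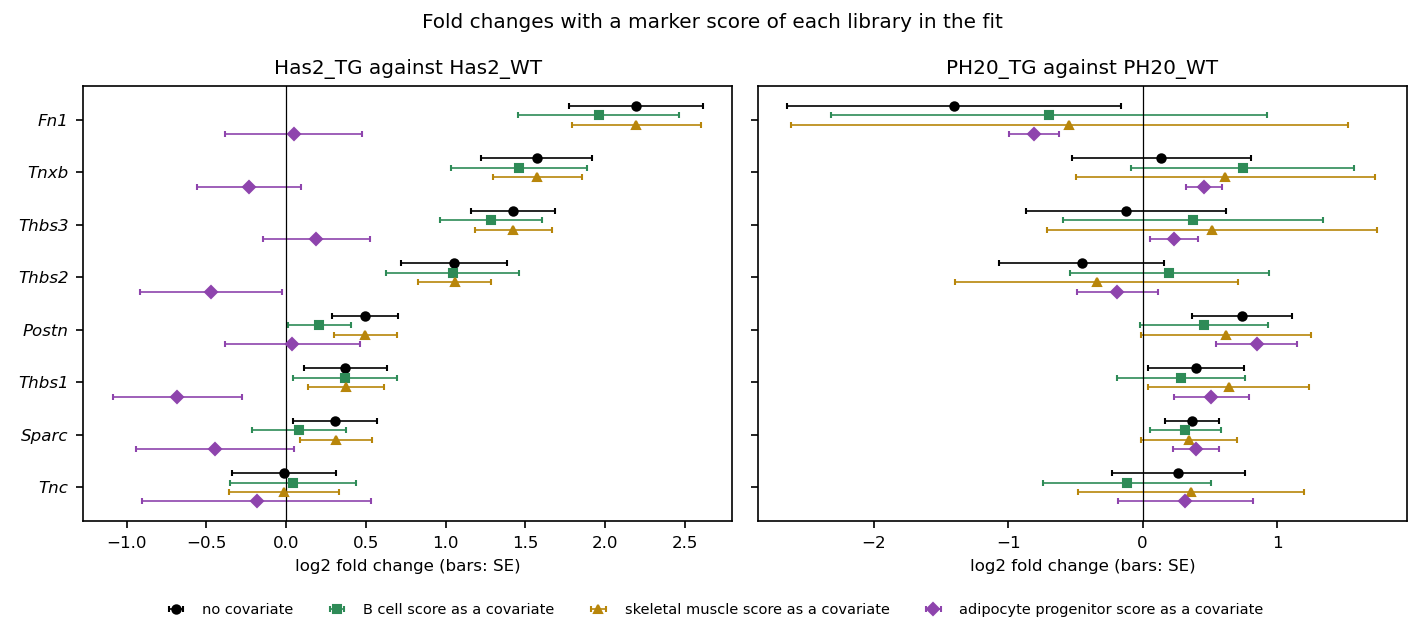
Log2 fold change (horizontal axes, bars: SE) of the 8 tested genes (vertical axis) in the Has2 study (left) and the PH20 study (right), without a covariate and with the B cell, skeletal muscle or adipocyte progenitor score of each library in the fit. In the Has2 study the fold change of Fn1 is 2.19 without a covariate and 0.05 with the progenitor score.

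The second comparison asked how the genes differed when adipocytes made a hyaluronan-degrading enzyme. None of the 8 members tested was called in either direction between PH20_TG and PH20_WT, in limma or with voom weights, and 3.20% of all genes tested were called higher and 3.39% lower. In no member did all PH20_TG libraries lie above all controls, as they did for 2.21% of all genes tested. Without PH20_WT1 and PH20_WT3, the controls with B cell transcripts, the count of calls was also 0, where 305 of 12175 genes were called higher and 245 lower. The median log2 fold change of the 8 genes was 0.202 and that of all genes 0.00903. The smallest p-values belonged to Postn, 0.74 higher on the log2 scale (95% interval -0.11 to 1.58, adjusted p = 0.731 in limma), and Sparc, 0.37 higher (95% interval -0.09 to 0.82, adjusted p = 0.737 in limma). Postn was called without PH20_WT4 (0.96), without PH20_TG2 (0.96) and with all 16 libraries in 1 fit, and Sparc without PH20_TG3 (0.49) and without a variance trend.

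The PH20_TG libraries differed widely among themselves. Fn1 had 121 and 115 FPKM in PH20_TG1 and PH20_TG4 but 5.07 and 3.05 FPKM in PH20_TG2 and PH20_TG3, a range of 39.6-fold within 1 group. The lower pair lay under every control, which had 121, 22.7, 63.6 and 62.5 FPKM, and under every library of the Has2 study. The log2 fold change of -1.40 had an SE of 1.24 and an adjusted p of 0.821 in limma, and it was -2.23 without the library labelled PH20_TG1 and -0.47 without PH20_TG3.

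Thbs3, Tnxb and Thbs2 split in the same way. Thbs3 had 13.7 and 14.04 FPKM in PH20_TG1 and PH20_TG4, against 1.97 and 1.53 FPKM in PH20_TG2 and PH20_TG3, with controls at 8.57, 3.37, 6.19 and 4.78 FPKM. Tnxb had 70.5 and 72.0 FPKM in the first pair, 12.8 and 13.1 FPKM in the other, and 53.4, 15.6, 28.6 and 24.3 FPKM in the controls. In both genes the control values lay wholly between the 2 pairs.

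Thbs2 had 12.8 and 9.25 FPKM in PH20_TG1 and PH20_TG4 and 3.18 and 1.76 FPKM in PH20_TG2 and PH20_TG3, where the highest control, PH20_WT1, reached 12.9 FPKM. The highest value was 7.26 times the lowest in PH20_TG for Thbs2, 9.19 times for Thbs3 and 5.63 times for Tnxb. Their log2 fold changes were -0.45, -0.12 and 0.14 with SEs of 0.61, 0.74 and 0.66, each smaller than its error. Without the library labelled PH20_TG1 they were -0.89, -0.60 and -0.27, and none was called. That fit called 559 of 12510 genes higher and 611 lower.

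Postn, Thbs1 and Tnc were split less evenly, with the library labelled PH20_TG1 above the rest. Postn had 55.6, 17.0, 21.4 and 26.6 FPKM in PH20_TG and 12.8, 13.0, 16.3 and 25.7 FPKM in PH20_WT. Thbs1 had 7.91, 3.03, 2.46 and 5.72 FPKM in PH20_TG and 3.10, 4.34, 2.81 and 2.92 FPKM in PH20_WT, and its log2 fold change was 0.39 (SE 0.36). Tnc had 4.55, 1.67, 1.09 and 1.88 FPKM in PH20_TG and 0.798, 3.001, 2.20 and 1.34 FPKM in PH20_WT, with a log2 fold change of 0.27 (SE 0.49). Without the library labelled PH20_TG1 the log2 fold changes were 0.39 for Postn, 0.11 for Thbs1 and -0.12 for Tnc, and none was called.

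Sparc showed no such split. It had 1130, 1057, 778 and 1136 FPKM in PH20_TG, a range of 1.46-fold, and 766, 783, 757 and 845 FPKM in PH20_WT. Of the PH20_TG libraries 3 lay above all controls and PH20_TG3 lay among them. Without the library labelled PH20_TG1 its log2 fold change was 0.31 and not called. Comp and Thbs4, with means of 36.0 and 20.6 reads, were not tested, and the highest Thbs4 value of the series, 1.24 FPKM from 93 reads, was in the control PH20_WT1.

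Has2 and the sums of progenitor markers, macrophage markers and immediate early genes were also higher in PH20_TG1 and PH20_TG4 than in PH20_TG2 and PH20_TG3. Pi16 was at 157 and 132 FPKM in PH20_TG1 and PH20_TG4 and at 12.7 and 1.53 FPKM in PH20_TG2 and PH20_TG3, and Dpp4, another marker of these cells, was at 16.1, 15.2, 1.09 and 0.266 FPKM in the same order. Has2 was at 3.32 and 3.26 FPKM in the first pair, near the highest Has2_TG library, and at 0.380 and 0.0990 FPKM in the other. The summed progenitor list was 814 and 850 FPKM against 187 and 260 FPKM. The 7 macrophage markers summed to 1764 and 689.9 FPKM in PH20_TG1 and PH20_TG4 and to 214 and 344 FPKM in PH20_TG2 and PH20_TG3. In PH20_WT they summed to 526 to 932 FPKM, a range that held PH20_TG4. The 7 immediate early genes, which rise quickly after many kinds of stimulus, summed to 142 and 203 FPKM against 53.7 and 49.0 FPKM, with Fos at 23.1 and 21.6 FPKM against 1.496 and 2.01 FPKM. The 6 adipocyte markers had the opposite split, summing to 4174 and 4785 FPKM in PH20_TG1 and PH20_TG4 and to 7607 and 7632 FPKM in PH20_TG2 and PH20_TG3. The part of adipocytes, macrophages and immediate early induction in the split was not tested. With the progenitor score in the fit, Fn1 was lower in PH20_TG by a log2 fold change of -0.80 (SE 0.19, adjusted p = 0.322 in limma). Tnxb (0.46), Postn (0.85) and Sparc (0.40) were called higher in limma. That fit called 655 of 12532 genes higher and 572 lower, against 401 and 425 without the score. Beyond these fits, the part of progenitor cells in the split was not tested. Skeletal muscle transcripts also differed between the PH20 groups, with 8 of 9 tested markers called lower in PH20_TG and sums of 9.34 to 254 FPKM against 214 to 906 FPKM in PH20_WT.

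**Figure D4:**
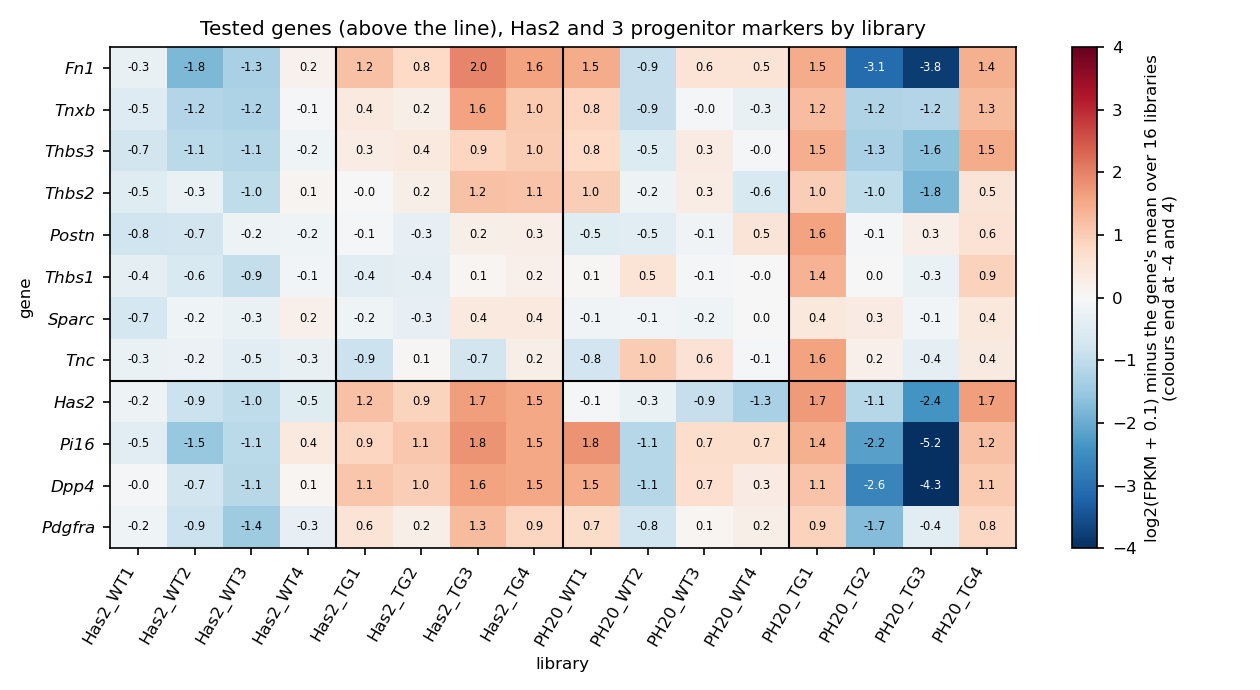
Log2(FPKM + 0.1) minus each gene's mean over the 16 libraries (colour and printed value) for the 8 tested genes, Has2 and 3 progenitor markers (rows) in each library (columns, groups parted by lines). Fn1, Tnxb and Thbs3 are above their means in all Has2_TG libraries, PH20_TG1 and PH20_TG4 and below them in PH20_TG2 and PH20_TG3, and Thbs2 differs from this in Has2_TG1, where it is at its mean, while Sparc and Tnc do not follow this order.

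The fold changes of the 2 studies were compared by an interaction term over all 16 libraries. Fn1 was called, its log2 fold change in the Has2 study exceeding that in the PH20 study by 3.60 (SE 1.41, adjusted p = 0.611 in limma), where 7.70% of all genes tested were called in either direction. The other 7 members were not, among them Thbs2 at 1.51 (95% interval -0.09 to 3.10), Thbs3 at 1.55 (-0.25 to 3.34) and Tnxb at 1.43 (-0.28 to 3.15). The count changed with single libraries. Without PH20_TG1 (Fn1 at 4.42 on the log2 scale) or without PH20_TG4 (4.40), Fn1, Thbs2, Thbs3 and Tnxb were all called, which makes 4. Without PH20_TG2 none was (Fn1 at 2.90 on the log2 scale, SE 1.36). Without Has2_TG1 or without PH20_WT4, Fn1 and Thbs2 (1.72 and 1.75) were called, which makes 2. The count over all genes moved too. It was 507 higher and 463 lower of 12593 with all libraries, and 759 and 585 of 12572 without PH20_TG1. Without PH20_TG4 it was 633 and 474 of 12607, and without PH20_TG2 322 and 322 of 12592. Without Has2_TG1 it was 488 and 466 of 12569, and without PH20_WT4 405 and 412 of 12614. Without the 4 libraries with B cell transcripts Fn1 was at 2.75 and not called, and with the progenitor score in the fit it was at 0.56 (SE 0.33) and not called. For Postn, Thbs1, Sparc and Tnc the difference lay between -0.28 and -0.02, with intervals that include 0.

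The controls of the 2 studies carried the same driver and were compared for reference, although study, litter and any difference in handling cannot be told apart. None of the 8 genes was called, where 5.61% of all genes tested were higher in Has2_WT and 4.66% lower. All 8 log2 differences lay below 0, with a median of -0.581 beside -0.0131 for all genes. Markers of several other cells lay lower in Has2_WT as well. All 9 progenitor markers (median -0.788, 1 called), all 7 macrophage markers (-0.726, 1 called), all 9 tested skeletal muscle markers (-3.5, 3 called) and all 5 tested Schwann cell markers (-0.573, 3 called) lay below 0. Other lists had medians above 0, among them adipocyte (0.362, 5 of 6 above 0), B cell (0.0846, 5 of 8) and smooth muscle markers (0.259, 2 of 2), with 0 called. The part of macrophages, Schwann cells and adipocytes in the differences of the 8 genes was not tested. Thbs1 was lower in every Has2_WT library, at 1.503 to 2.73 FPKM, than in every PH20_WT library, at 2.81 to 4.34 FPKM, a separation found in this direction for 3.20% of all genes tested. Its log2 difference was -0.63 (SE 0.32, adjusted p = 0.517 in limma), and it was called without Has2_WT4 (-0.76), PH20_TG1 or PH20_TG3, the last pair of which enter only through the shared spread. Fn1 differed by -1.22 (SE 1.00), with 28.3 FPKM in Has2_WT and 67.5 FPKM in PH20_WT on average.

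The likeness of the members over the 16 libraries was measured as Pearson's r of log2(FPKM + 0.1), given as a description since the points share groups, depth and makeup of tissue. Fn1, Thbs2, Thbs3 and Tnxb formed the closest set, with r of 0.924 between Fn1 and Thbs3, 0.895 between Fn1 and Tnxb, 0.892 between Fn1 and Thbs2 and 0.955 between Thbs3 and Tnxb. About the group means, which removes the differences between groups, the same pairs had r of 0.983, 0.957, 0.857 and 0.953. Fn1 ranged 39.6-fold within PH20_TG, against 5.35-fold in PH20_WT, 3.86-fold in Has2_WT and 2.25-fold in Has2_TG. Its r about the group means thus rest largely on the split of PH20_TG, which includes the library labelled PH20_TG1. Fn1 and Tnc had r of 0.049, Fn1 and Sparc of 0.275, Fn1 and Postn of 0.307 and Fn1 and Thbs1 of 0.395. About the group means these 4 were 0.259, 0.422, 0.605 and 0.758, each higher than over all libraries. Postn and Sparc had r of 0.695 and Thbs1 and Tnc of 0.73, or 0.516 and 0.644 about the group means. The r of Fn1 with Pi16 was 0.968 and with Has2 0.811.

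Of 12593 genes, those most like Fn1 were Scara3 (r = 0.992), the ferritin receptor Scara5 (0.991), the secreted Wnt-binding proteins Sfrp4 (0.988) and Sfrp2 (0.985), and Fndc1 (0.984), which carries fibronectin type III domains. Those most like Thbs3 were fibrillin 1 (Fbn1, 0.987), Dnm1 (0.984) and Ecm1 (0.981), and those most like Tnxb were tissue plasminogen activator (Plat, 0.988), Cd248 (0.98) and Fstl1 (0.979). Thbs2 was most like Efemp1 (0.944), Serping1 (0.938) and C7 (0.927). The best partners of the remaining members were less close, with Fam129b for Thbs1 (0.887), the integrin chain Itga5, which forms part of a fibronectin receptor, for Postn (0.887), Htra3 for Sparc (0.885) and Fblim1 for Tnc (0.806).

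Genes that work beside the members were read from 5 lists, with the same call as above (6.25% of all genes tested higher in Has2_TG, 3.20% higher in PH20_TG). Of 16 tested matrix partners, the collagens, small proteoglycans and elastic fibre proteins to which the members bind, 13 were called higher in Has2_TG and 0 lower, with a median log2 fold change of 0.95. Col14a1, a collagen on the surface of fibrils, was at 17.6 against 4.47 FPKM (log2 fold change 2.01, SE 0.31), Dcn (decorin) at 198 against 69.7 FPKM (1.58, SE 0.31) and Fbn1 at 37.6 against 10.4 FPKM (1.93, SE 0.38). Dcn and Lum are also among the progenitor markers. In the PH20 study 2 of 16 were called higher, Col6a3 (0.75, SE 0.21) and Col6a2 (0.62, SE 0.24), both chains of the beaded-filament collagen VI, and 0 lower, with Lum next (0.74, SE 0.34).

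Of 15 tested processing enzymes, which cut or clear matrix proteins, 8 were called higher in Has2_TG and 0 lower, with a median of 0.942. Bmp1, which trims procollagens, was at 17.9 against 7.17 FPKM (log2 fold change 1.29, SE 0.23), Plat at 10.1 against 3.002 FPKM (1.78, SE 0.36) and Mmp2, a gelatinase, at 109 against 40.1 FPKM (1.48, SE 0.34). In the PH20 study 0 of 15 were called in either direction, and the smallest p-value was that of Adamts4 (0.95, SE 0.43), followed by Furin (0.27, SE 0.16) and Adamts12 (0.47, SE 0.31).

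Among 18 tested related adhesive and matricellular genes 7 were called higher in Has2_TG and 0 lower, with a median of 0.706. Ecm1 was at 139 against 37.6 FPKM (log2 fold change 1.94, SE 0.27), Spock2 at 3.49 against 0.885 FPKM (1.75, SE 0.36) and Fstl1 at 123 against 37.0 FPKM (1.77, SE 0.37). In the PH20 study Cyr61, a matricellular protein of the CCN family, was called higher at 26.1 against 4.35 FPKM (2.30, SE 0.51), and Vtn (vitronectin), a plasma and matrix adhesion protein, was called lower at 7.95 against 11.7 FPKM (-0.56, SE 0.17). Ctgf, another CCN protein, did not pass (0.97, SE 0.50).

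Receptors and the TGF-beta genes had fewer calls. Of 20 tested receptors, among them integrins, syndecans and scavenger receptors, 4 were called higher in Has2_TG and 0 lower, with a median of 0.313. These were Sdc2 (log2 fold change 0.71, SE 0.16), a syndecan that binds fibronectin, Egfr (1.23, SE 0.34), Stab1 (0.54, SE 0.23) and Lrp1 (0.41, SE 0.18), which takes up thrombospondins. In the PH20 study 2 of 21 were called higher, Sdc1 (0.90, SE 0.32) and Lrp1 (0.35, SE 0.14), while Itga5 stood at 0.67 (SE 0.34).

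Of 18 genes of TGF-beta activation and response 4 were called higher in Has2_TG and 0 lower, while the median was -0.0219, close to that of all genes. Ltbp1, which anchors latent TGF-beta to the matrix, was at 7.61 against 2.49 FPKM (log2 fold change 1.57, SE 0.30) and Tgfb2 at 1.62 against 0.350 FPKM (1.96, SE 0.45), followed by Tgfbr3 (0.54, SE 0.19) and Tgfb3 (0.85, SE 0.30). In the PH20 study 0 were called lower, and Lrrc32 (0.42, SE 0.17) was among those called higher. The part of progenitor number in these lists was not tested.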

How the data were processed

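Total RNA of iWAT was made into TruSeq libraries, and the table holds FPKM per gene for the 16 libraries. Per the labels and the study's methods, the authors checked reads with FastQC 0.11.9 and MultiQC 1.12, aligned them to GRCm38 with STAR 2.7.9a, took gene counts from STAR and tested them with DESeq2. The deposited FPKM values were multiplied by gene length, which gave whole reads (within 0.01) for 100% of values after 1 factor per library. This served for the read minimum of 50, for depth and to tell libraries apart: the counts of all 120 pairs differed beyond sampling noise (chi-square at least 28.7 times its degrees of freedom).

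limma 3.58.1 (R 4.3.3) was fitted on log2(FPKM + 0.1) with a variance trend, per study over 8 libraries, and over all 16 for the difference between studies and between controls. The pseudocount understates changes of genes with low FPKM. The fit was tested on simulated data. Exact permutation tests (SciPy 1.17.1) are two-sided. The members and lists were chosen with earlier results of these data known. Named genes are all members, the genes of smallest p per list and the genes most like each member; Dpp4, Lrp1 in Has2_TG and Tgfb3 fall outside that rule and were chosen after their values were seen. Protein sequences were not analysed here. One gene of the TGF-beta list is not reported here. Alternatives were another pseudocount and read minimum, other scalings, no trend, voom weights, a replicate block, marker scores as covariates, and each library left out.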

Additional observations from a re-analysis of the deposited data

Results flagged for a closer look

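The fold change of Fn1 differed between the studies by the interaction test, being 3.60 higher on the log2 scale in the Has2 study than in the PH20 study (SE 1.41, adjusted p = 0.611 in limma over 16 libraries). In the Has2 study all 4 transgenic libraries lay above all 4 controls, and in the PH20 study 2 of the 4 transgenic libraries lay below all controls. Dixon's test marked no library in the 40 combinations of gene and group, but it cannot mark one where 4 values part 2 and 2, as those of Fn1 did in PH20_TG.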

How the results depend on the processing

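Of the 8 genes, Fn1, Thbs3 and Tnxb kept their direction and call in the Has2 study under every alternative but the progenitor score, with log2 fold changes of 1.87 to 2.52, 1.30 to 1.62 and 1.31 to 1.79 when single libraries were left out. The labels do not say whether the replicate numbers pair the samples. Same-numbered deviations had correlations of -0.176 to 0.126 in the Has2 study and -0.0418 to 0.421 in the PH20 study. Has2_WT2 (0.126), PH20_WT1 (0.346) and PH20_WT2 (0.421) correlated best with the transgenic library of their own number and the other controls did not, so pairing was not settled. With the replicate block, 5 members were called higher in Has2_TG, 0 in PH20_TG and 1 in the difference between the studies. Of all genes 750 of 12606, 633 of 12532 and 597 of 12593 were called higher there. In the Has2 study Fn1 had a log2 fold change of 2.19 with the block (adjusted p = 0.129 in limma). With all 16 libraries in 1 fit 3 members were called higher in the Has2 study, beside 802 of 12593 genes. With the progenitor score 0 were, beside 507 of 12606 genes, and Thbs1 turned to -0.68, Thbs2 to -0.47, Tnxb to -0.23 and Sparc to -0.45. Tnc turned to 0.012 with a pseudocount of 1, 0.037 with quantile normalization, 0.042 with the B cell score and 0.052 without the libraries with B cell transcripts, an alternative chosen after seeing the data, and ranged from -0.20 to 0.17 with single libraries left out.

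In the PH20 study 1 member was called higher without a variance trend and 1 with all 16 libraries in 1 fit. Of all genes 381 of 12532 and 338 of 12593 were called higher there. With the progenitor score 3 members were called higher and 1 lower, where 655 of 12532 genes were called higher and 572 lower. With single libraries left out the count of members was 0 to 1, where 283 to 559 genes were called higher. Thbs2 turned to 0.20 with the B cell score and 0.065 without the libraries with B cell transcripts, and ranged from -0.89 to 0.040 with single libraries left out. Thbs3 turned to 0.37 with the B cell score, 0.52 with the muscle score, 0.23 with the progenitor score and 0.30 without the libraries with B cell transcripts, and ranged from -0.62 to 0.42. Tnc turned to -0.12 with the B cell score and -0.012 without the libraries with B cell transcripts, and ranged from -0.12 to 0.54, while Tnxb ranged from -0.28 to 0.55.

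For the difference between the studies 2 members were called with voom weights, 2 with the muscle score and 0 with the progenitor score. The count was 0 without the libraries with B cell transcripts and 0 to 4 with single libraries left out. Of all 12593 genes, 574 were called higher and 514 lower with voom weights, 463 and 588 with the muscle score and 353 and 342 with the progenitor score. Without the libraries with B cell transcripts 288 and 416 of 12269 were called. Thbs1 turned to 0.14 with the muscle score and 0.13 without the libraries with B cell transcripts (left out singly, -0.28 to 0.27), Thbs3 to -0.24 and Tnxb to -0.28 with the progenitor score, Tnc to 0.064 without the libraries with B cell transcripts (-0.55 to 0.11) and Sparc to 0.041 with quantile normalization and 0.22 with the muscle score (-0.21 to 0.092), while Postn ranged from -0.46 to 0.11. Between the controls, with the progenitor score, Fn1 turned to 0.26, Thbs2 to 0.16 and Tnxb to 0.18. Sparc turned to 0.023 there without the libraries with B cell transcripts (-0.28 to 0.023 with single libraries left out). With single libraries left out 0 to 1 members were called lower between the controls, where 399 to 697 of all genes were called lower. The causes were not tested. With no read minimum, Comp and Thbs4 stood at 1.34 (SE 0.85) and 0.23 (SE 0.54) in the Has2 study. Counts of 0 there did not follow depth. Has2_WT1, with 0 reads of both genes, had 26751729 reads on 16550 genes. Has2_WT2, with 71 and 8 reads of Comp and Thbs4, had 16442272 reads on 21986 genes.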
